A study of Mus musculus with 13 samples.

Results

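Motoneurons of 9 mice were compared, 4 given a vector that silences human SOD1 in astrocytes and 5 given the control vector, so that injection and viral vector were the same in both groups. The AAV-miR SOD1 group (n = 4, rep1 to rep4) received an adeno-associated virus (AAV) expressing an artificial microRNA against human SOD1 in astrocytes, and the AAV-miR ctrl group (n = 5, rep1, rep3, rep4, rep5 and rep6) received AAV-miR ctrl, both by injection into the cerebral ventricles at postnatal day 2. Every mouse of both groups carried the SOD1-G93A transgene, a mutant human SOD1 used as a model of amyotrophic lateral sclerosis (ALS), and was 65 days old. Each library was made from a pool of 500 motoneurons of 1 mouse, cut by laser from cresyl violet-stained sections of lumbar cord that had been frozen inside its vertebrae. The 9 libraries were chosen by their titles among the 13 of the series. The other 4, from non-injected SOD1-G93A littermates, were not part of the 2 groups compared. They entered the gene filter, the scaling and the fit of the spread. They also entered the mean level used to choose named genes, and the fits with a covariate or a replicate block. There were no mice without the transgene, and the pools stand for 1 mouse each, so that p-values measure the spread between mice.

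Libraries are called SOD1 rep1 to rep4 and ctrl rep1, rep3, rep4, rep5 and rep6 below, and values printed in a row follow that order. The column header of ctrl rep3 names the non-injected group and the header of a non-injected library names AAV-miR ctrl, against their labels. The labels were followed. Fits without ctrl rep3, and with those 2 libraries exchanged (header exchange), are given where they moved a count of called genes or the value of a named gene by over 1.5 times. Of 101 named genes, the exchange turned the sign of 1, Acta1, and moved no other log2 fold change by over 1.5 times. Counts assigned to genes ranged from 13897189 to 37334069 per library, and ctrl rep5 and ctrl rep6 were the deepest. The non-injected libraries numbered 5 and 6 held 37414222 and 35783335 counts. No AAV-miR SOD1 library is numbered 5 or 6. A difference that rests on ctrl rep5 and ctrl rep6 therefore cannot be told apart from one of library number. Of 8 library measures compared by two-sided exact permutation tests, 0 had an adjusted p under 0.05. Genes with at least 1 count numbered 22998 ± 457 (SD, n = 4) against 22092 ± 575 (SD, n = 5), with an exact permutation p of 0.0476 and an adjusted p of 0.19. Of all counts, assigned and unassigned, those listed as not uniquely aligned made up 54.2% ± 2.43 (SD, n = 4) against 49.1% ± 3.63 (SD, n = 5). The exact permutation p was 0.0476 and the adjusted p 0.19, where the smallest p that 4 against 5 allows is 0.00794. The lowest shares were in ctrl rep5 (44.56%) and ctrl rep6 (46.57%).

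Spinal motoneurons use acetylcholine to drive muscle, and their long axons depend on neurofilaments, kinesin and dynein transport and vesicle release. In ALS they degenerate, and mutant SOD1 in the surrounding astrocytes is known to speed the course of disease in mice, which is why silencing it there bears on the neuron. Large, fast-fatiguing motoneurons are affected first, while slow and gamma motoneurons are more resistant.

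Markers of motoneurons and of tissues outside the cord were both detected in every library. Chat, which makes acetylcholine, was detected in all 9 libraries, and the 8 cholinergic genes summed to between 468.1 and 810.6 CPM (counts scaled to library size) in AAV-miR SOD1 and between 715.7 and 1799 CPM in AAV-miR ctrl. Skeletal muscle genes (10 of 10 detected in every library) summed to 24420, 7999, 103600 and 77850 CPM in SOD1 rep1 to rep4 and to 21340, 116300, 83860, 46210 and 69330 CPM in the controls. Neutrophil granule genes (13 of 13 detected in every library) summed to between 30800 and 82910 CPM against 11510 to 70960 CPM. Bone and connective tissue genes summed to between 7564 and 18490 CPM against 5629 to 28720 CPM.

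Erythroid and heme synthesis genes had the greatest median difference of all lists. Their sums were 50640, 46570, 22110 and 32370 CPM in AAV-miR SOD1 and 29150, 17900, 13070, 4209 and 9624 CPM in the controls. The lowest AAV-miR SOD1 library lay under ctrl rep1 and above the other 4 controls. In ctrl rep1 the neutrophil sum (70960 CPM) was also above 3 of the 4 AAV-miR SOD1 libraries, and its cholinergic sum (715.7 CPM) was the lowest among the controls, whereas ctrl rep5 and ctrl rep6 had the highest cholinergic and the lowest erythroid sums. In a bulk pool, fewer cells of a type and less RNA per cell cannot be told apart. Over the 5 controls the order of the cholinergic sums was the reverse of the order of the erythroid sums. In AAV-miR SOD1 the order was not reversed, with cholinergic sums of 571.8, 810.6, 468.1 and 673.6 CPM in rep1 to rep4. SOD1 rep3 was the lowest of its group in both lists. The part of blood RNA in the results below was not tested. A fit that held the erythroid level as a covariate is given, but that level was itself mostly higher in AAV-miR SOD1. The fit therefore cannot tell blood RNA and a difference by group apart.

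**Figure D1:**
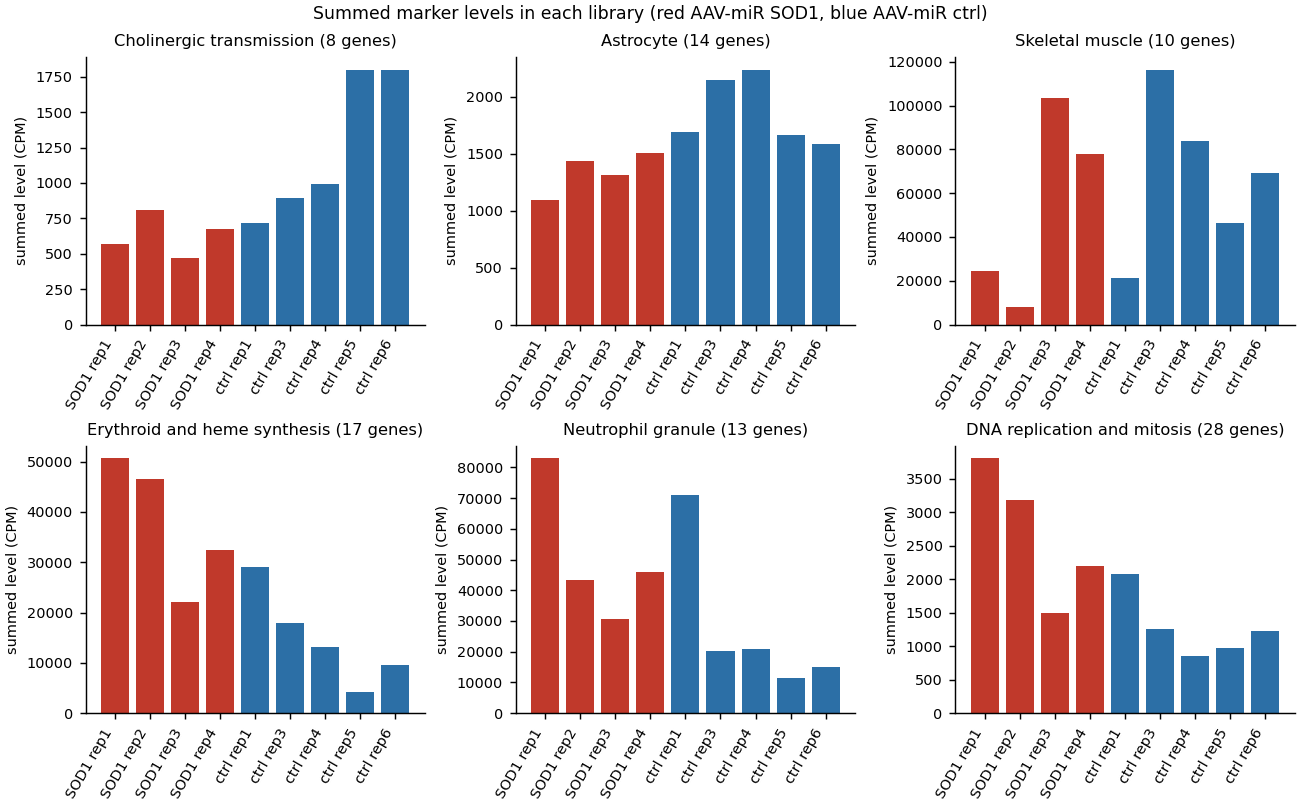
Bars give the summed level of 6 gene lists in CPM for each AAV-miR SOD1 (red) and AAV-miR ctrl (blue) library. Erythroid sums run from 22110 to 50640 CPM in AAV-miR SOD1 and from 4209 to 29150 CPM in AAV-miR ctrl, and cholinergic sums are highest in ctrl rep5 and ctrl rep6.

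The quasi-likelihood test of edgeR called 0 of 17403 genes once p-values were adjusted (0% at a threshold of 0.05), and the smallest adjusted p was 0.256. Before adjustment 2529 genes lay under 0.05, 14.5% of those tested. These comprised 1043 genes higher in AAV-miR SOD1 (5.99%) and 1486 lower (8.54%), and "called" below means this unadjusted threshold. The levels of the 4 AAV-miR SOD1 and the 5 AAV-miR ctrl libraries did not overlap for 221 genes with higher values (1.27%) and 428 with lower values (2.46%). The median log2 fold change over all genes tested was -0.04. DESeq2 gave 180 genes with an adjusted p under 0.05 (93 higher and 87 lower), and limma-voom with quality weights gave 0, with 3814 at an unadjusted p under 0.05.

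The unadjusted count moved with single libraries. It was 1192 without SOD1 rep1, 1604 without ctrl rep5, 1591 without ctrl rep6 and 3986 without ctrl rep1, while it was 2090 without ctrl rep3 and 3456 with the header exchange. In the libraries numbered 1 to 4 alone, which leave out ctrl rep5 and ctrl rep6, 891 of 18274 genes (4.88%) were called. With the erythroid level as a covariate, chosen after the data were seen, 256 of 17403 genes (1.47%) were called, 54 higher and 202 lower. More lower than higher genes were called as reported (41.2% higher), against 62.5% higher without SOD1 rep3.

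**Figure D2:**
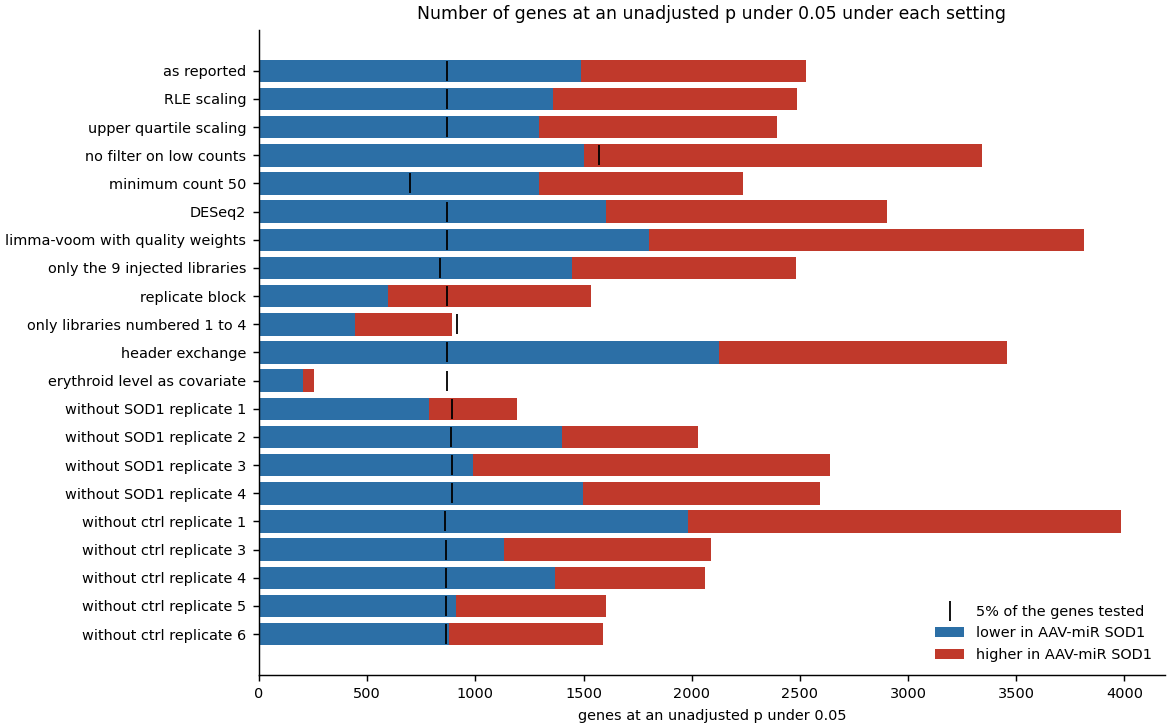
Horizontal bars give the number of genes at an unadjusted p under 0.05 under each setting, split into lower (blue) and higher (red) in AAV-miR SOD1, and black ticks mark 5% of the genes tested. The count runs from 256 with the erythroid covariate to 3986 without ctrl rep1.

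Astrocytic human SOD1 was the target of the microRNA, and the closest gene in the count tables was mouse Sod1. Whether transgene reads were counted with it is not stated. Sod1 (ENSMUSG00000022982, chr16:90220754-90226329, plus strand) stood at 168, 273, 235 and 271 CPM in the AAV-miR SOD1 libraries and at 272, 352, 220, 278 and 320 CPM in the controls. SOD1 rep1 was the lowest of the 9, and the groups overlapped. Its log2 fold change was -0.28 ± 0.24 (SE), with an adjusted p of 0.624, and it was -0.14 without ctrl rep3. Mouse Sod1 in motoneurons is not the target and gives no check of the silencing in astrocytes.

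Among genes lower in AAV-miR SOD1 without overlap, 12 were named by the smallest p. Stmn4, a stathmin that destabilises microtubules in neurons (ENSMUSG00000022044, chr14:66344296-66361680), had 15.8, 17.8, 9.29 and 9.8 CPM in AAV-miR SOD1 and 33.2, 29.4, 33.9, 26.3 and 33 CPM in AAV-miR ctrl. All 5 controls were close to each other and above every AAV-miR SOD1 library, and the log2 fold change was -1.24 ± 0.23 (SE). Gabrg1, the gamma-1 subunit of the GABA-A receptor (ENSMUSG00000001260, chr5:70751047-70842617), had 4.9, 4.61, 5.78 and 6.64 CPM against 9.46, 12.6, 12.1, 21.2 and 17.9 CPM. Its lowest control was ctrl rep1, and the log2 fold change was -1.42 ± 0.27 (SE). Clstn3, a synaptic adhesion protein, had 47.5, 56.4, 60.1 and 57.8 CPM against 74.5, 77.6, 98.2, 128 and 137 CPM and a log2 fold change of -0.90 ± 0.21 (SE). Here ctrl rep5 and ctrl rep6 were the highest and ctrl rep1 the lowest control. The edgeR adjusted p was 0.256 for all 3, and DESeq2 gave 0.00189, 0.00283 and 0.017.

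Another 9 genes were chosen by the same rule. Rab9b, a GTPase of endosomal traffic, had 5.39, 5.33, 4.64 and 4.05 CPM against 7.47, 14, 11.8, 12.8 and 15.7 CPM, a log2 fold change of -1.35 ± 0.27 (SE). Ift81, which carries tubulin in cilia, had 6.41, 7.49, 6.78 and 7.46 CPM against 11.2, 15.5, 11.8, 16.9 and 17.5 CPM and -1.05 ± 0.21 (SE) on the log2 scale. For both genes the AAV-miR SOD1 libraries lay within a narrow range below all controls. Opcml, a cell adhesion molecule of neurons, had 4.54, 7.2, 4.88 and 5.94 CPM against 8.75, 12.9, 15.1, 13.7 and 13.1 CPM, and Fut9, which makes the Lewis x sugar of neural cells, had 8.37, 8.74, 7.25 and 8.41 CPM against 11.4, 17.9, 17.5, 19 and 16.9 CPM. Their log2 fold changes were -1.17 ± 0.25 and -1.01 ± 0.23 (SE), and ctrl rep1 was the lowest control for both. Nipal2, of a family of magnesium transporters, had the greatest fold of the 12, with 3.16, 5.09, 2.46 and 3.16 CPM against 5.79, 10.7, 8.7, 20.4 and 13.7 CPM and a log2 fold change of -1.77 ± 0.40 (SE). Its exons share positions with an annotated transcript, 4930413F20Rik. Luzp2, Brd3os, Lbhd2 and the zinc finger gene Zfp365 had log2 fold changes of -1.25, -1.07, -1.36 and -0.99.

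With the erythroid covariate the log2 fold change of Stmn4 was -1.63 and that of Lbhd2 -1.59, larger than without it, while that of Gabrg1 was -0.87, that of Rab9b -1.19 and that of Clstn3 -0.48. In the libraries numbered 1 to 4 alone, Stmn4 stood at -1.27, Gabrg1 at -1.05, Rab9b at -1.17 and Clstn3 at -0.58. Without ctrl rep3 these 4 genes had values of -1.20, -1.41, -1.23 and -0.92. All 12 genes kept a negative sign under each of 20 alternatives, which reuse the same libraries. They were chosen for having no overlap in these libraries, so the kept sign follows largely from the choice. An adjusted p under 0.05 came from DESeq2 only.

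Higher genes without overlap were named by the same rule. Fam210b, a mitochondrial protein of red cell precursors (ENSMUSG00000027495, chr2:172345565-172355749), had 124, 104, 70.9 and 56.7 CPM in AAV-miR SOD1 and 37.2, 30.3, 34.6, 19.6 and 41.5 CPM in AAV-miR ctrl. Every AAV-miR SOD1 library was above every control, and the log2 fold change was 1.45 ± 0.27 (SE). Car1, the carbonic anhydrase of red cells, had 251, 309, 102 and 152 CPM against 75.6, 77.6, 36.8, 28.6 and 88.3 CPM and 1.73 ± 0.41 (SE). Tal1, a transcription factor of blood cell formation, had 29.6, 25, 12.3 and 12.5 CPM against 6.72, 10.3, 7.5, 3.79 and 5.86 CPM, with 1.54 ± 0.35 (SE). In each of these genes SOD1 rep1 or rep2 was the highest and SOD1 rep3 or rep4 the lowest of its group. Slc38a5, an amino acid transporter, had 90.9, 95.4, 34 and 47.3 CPM against 20.4, 33.2, 15.5, 12.6 and 19.9 CPM, where SOD1 rep3 and ctrl rep3 were nearly equal, and a log2 fold change of 1.72 ± 0.38 (SE).

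The other 7 had roles of several kinds. Cd300ld, an activating receptor of myeloid cells (ENSMUSG00000034641, chr11:114982274-114989922), had 17.6, 15.2, 10.9 and 15.9 CPM against 8.4, 3.28, 4.87, 4.94 and 5.89 CPM and a log2 fold change of 1.45 ± 0.29 (SE). Ms4a4b, a membrane protein of T cells, had 12.2, 17.6, 9.95 and 13.1 CPM against 4.77, 7.32, 2.47, 4.29 and 3.89 CPM and 1.53 ± 0.36 (SE). In both genes ctrl rep1 or ctrl rep3 was the control nearest to the AAV-miR SOD1 libraries. Casp8ap2, which serves histone transcripts in dividing cells, had 32.5, 34.3, 28.5 and 26.4 CPM against 22, 18.4, 12.2, 9.2 and 12.1 CPM. Aplf, a DNA break repair factor, had 14.5, 9.5, 9.38 and 11.4 CPM against 5.48, 4.14, 5.4, 3.97 and 5.11 CPM, and its exons share positions with Gm44097. Rb1, a brake on the cell cycle, had 54.7, 33.3, 22.2 and 18.1 CPM against 15.6, 14.4, 14.3, 12.4 and 10.2 CPM, and its exons share positions with Rcbtb2 and Lpar6. The log2 fold changes of these 3 genes were 1.04, 1.22 and 1.26. Sh3tc2, an endosomal protein mutated in a hereditary neuropathy, and C1qtnf12, a secreted protein, had log2 fold changes of 1.44 and 1.16. For these 11 genes the edgeR adjusted p was 0.256 and the DESeq2 value ran from 0.00283 to 0.0201.

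The erythroid covariate brought these folds down to 0.60 for Fam210b, 0.34 for Car1, 0.41 for Tal1 and 0.42 for Slc38a5. Cd300ld and Ms4a4b had 1.02 and 0.86 under it. Without ctrl rep3 the values of Fam210b, Cd300ld and Slc38a5 were 1.48, 1.36 and 2.03. These 11 genes stayed positive in 20 alternatives, which again follows largely from their choice by no overlap in the same libraries.

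**Figure D3:**
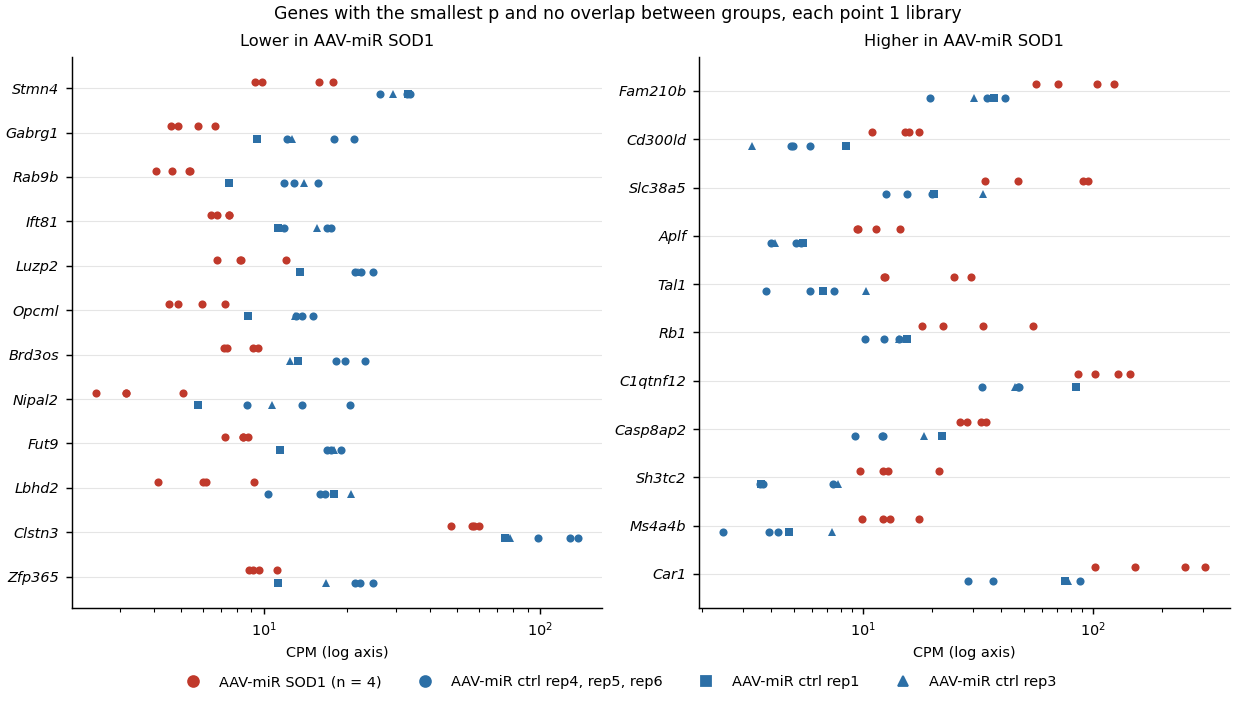
Each point is the level of 1 gene in 1 library, in CPM on a log axis, for 12 lower (left) and 11 higher (right) genes of those with the smallest p among those whose groups do not overlap, with AAV-miR SOD1 in red and AAV-miR ctrl in blue. The ctrl rep1 library (square) is often the control nearest to the AAV-miR SOD1 libraries, as for Gabrg1 at 9.46 CPM and C1qtnf12 at 84.3 CPM.

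Gene lists showed a broad pattern of lower neuronal and higher erythroid, dividing cell and immune genes. These lists were chosen with earlier results of the same data known, so their counts describe the libraries and are read against the 5.99% higher and 8.54% lower of all genes. Leaving out a library changed many of the counts by over 1.5 times, and those libraries are named with each list. The erythroid covariate brought the log2 fold changes of 79 of 101 named genes to under 1 in 1.5 of their size or past 0, and the libraries numbered 1 to 4 alone did so for 32. As the erythroid level went with the group, counts under this covariate cannot tell blood RNA and group apart.

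**Figure D4:**
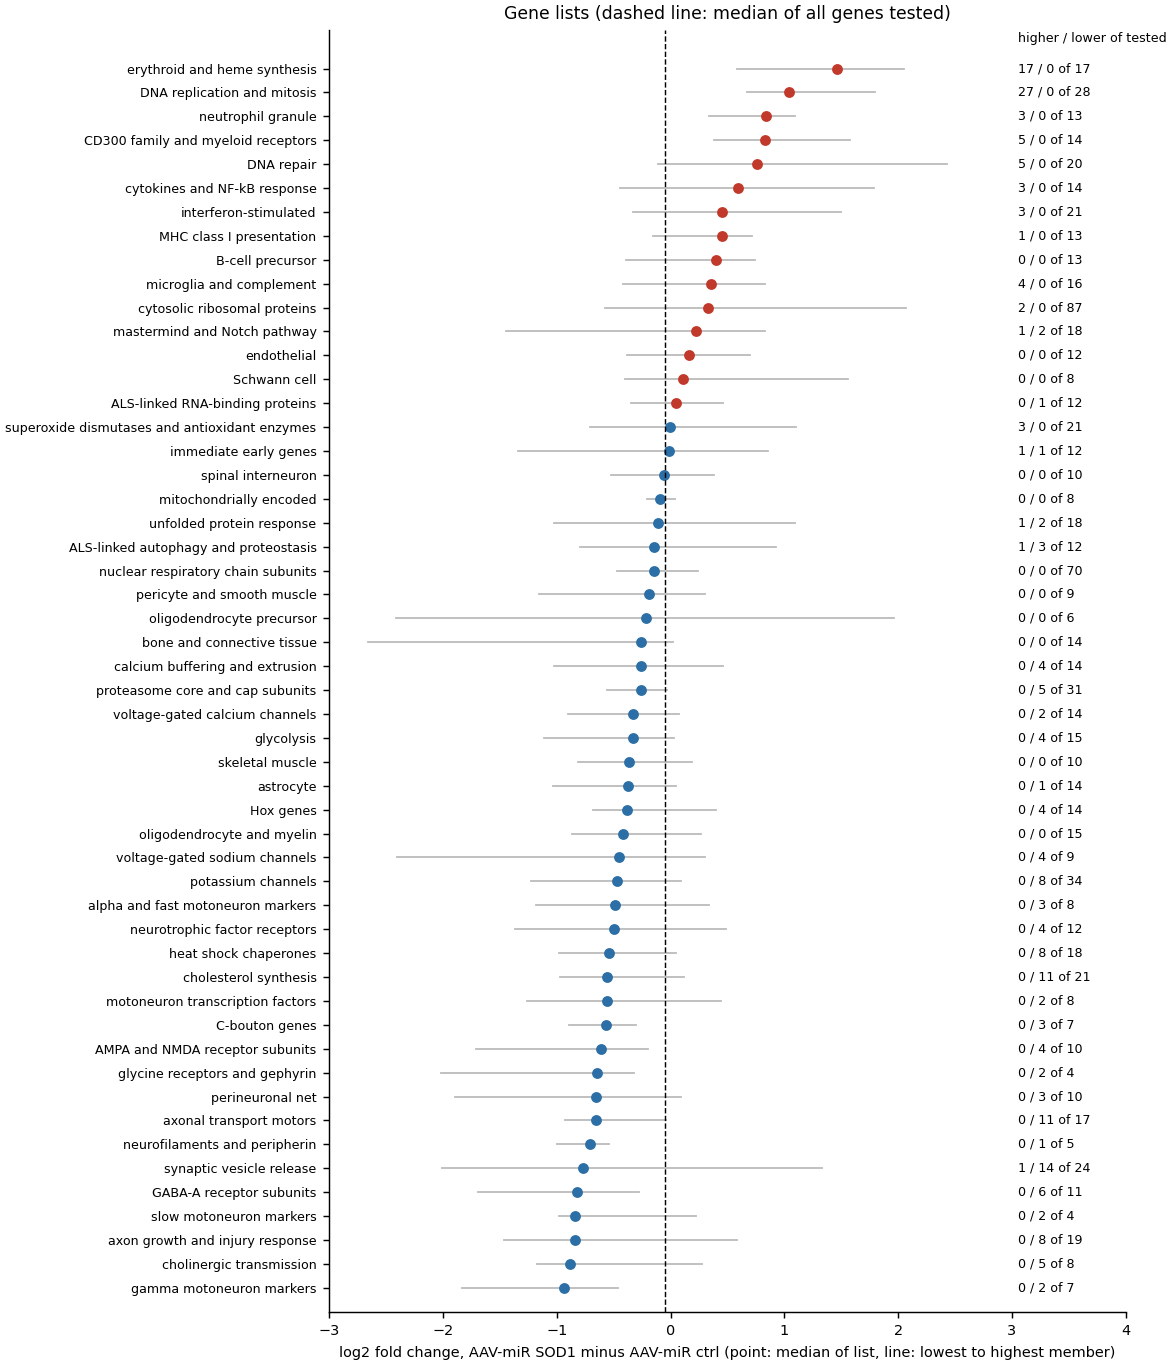
Points give the median log2 fold change (AAV-miR SOD1 minus AAV-miR ctrl) of each of 52 gene lists, lines run from its lowest to its highest member, and text at the right gives members called higher and lower of those tested. The list medians run from -0.94 (gamma motoneuron markers) to 1.46 (erythroid and heme synthesis), and the dashed line marks the median of all genes, -0.04.

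Cholinergic genes were lower. Of 8 tested, 5 were called lower (62.5%), 0 were called higher, 2 had no overlap between groups, and the median log2 fold change was -0.88. Chat, choline acetyltransferase (ENSMUSG00000021919, chr14:32408203-32465989), had 47.6, 66.8, 39.1 and 65.9 CPM in AAV-miR SOD1 and 74.9, 73.8, 87.2, 131 and 121 CPM in AAV-miR ctrl. The highest AAV-miR SOD1 library, rep2, was under the lowest control, and the log2 fold change was -0.83 ± 0.26 (SE, adjusted p = 0.256). Slc5a7, the choline transporter, had 152, 207, 165 and 169 CPM against 210, 301, 308, 408 and 427 CPM, a log2 fold change of -0.94 ± 0.27 (SE, adjusted p = 0.256). SOD1 rep2 and ctrl rep1 were nearly equal here. Slc18a3, the vesicular acetylcholine transporter, had 162, 297, 131 and 213 CPM against 212, 266, 341, 693 and 658 CPM and -1.11 ± 0.41 (SE, adjusted p = 0.277), with overlap between the groups and the 2 highest values in ctrl rep5 and ctrl rep6. The other called genes were Ache, acetylcholinesterase, and Chrnb2, a nicotinic receptor subunit, at log2 fold changes of -1.10 and -1.17. The called count was 3 without SOD1 rep3, ctrl rep5 or ctrl rep6, 5 without ctrl rep3 and 0 in the libraries numbered 1 to 4. Under the erythroid covariate it was 0, at a median of -0.44.

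Motoneuron transcription factors and subtype markers were also lower at the median. Of 8 transcription factors tested, 2 were called lower, at a median of -0.56. Isl1, which specifies motoneurons, had 2.76, 6.05, 4.93 and 1.77 CPM against 2.39, 9.49, 7.12, 16.4 and 11.1 CPM, and Mnx1, another such factor, had 6.77, 7.06, 3.46 and 7.08 CPM against 6.72, 7.66, 8.77, 15.1 and 18.9 CPM. Both overlapped between groups, as ctrl rep1 lay among the AAV-miR SOD1 values, with log2 fold changes of -1.26 ± 0.51 and -0.91 ± 0.39 (SE) and adjusted p of 0.301 and 0.317. The transcription factor count was 0 without ctrl rep5 or ctrl rep6, and 1 without SOD1 rep1, rep3 or rep4. It was 4 with the header exchange (median -1.04), 0 in the libraries numbered 1 to 4 (median -0.16), 0 with the erythroid covariate (median -0.01) and 1 in limma-voom. Among alpha and fast markers 3 of 8 were called lower (median -0.49), among slow markers 2 of 4 (median -0.84) and among gamma markers 2 of 7 (median -0.94). Calca, the neuropeptide CGRP, had 213, 457, 304 and 302 CPM against 284, 526, 547, 1200 and 1070 CPM and a log2 fold change of -1.18 ± 0.44 (SE, adjusted p = 0.279). Calcb, a second CGRP gene, and Vipr2, a peptide receptor, were the other called fast markers, at -1.04 and -0.77. Mmp9, a protease of fast, vulnerable motoneurons that neutrophils also make, had 964, 1290, 892 and 736 CPM against 1550, 471, 706, 732 and 379 CPM. Its highest value was in ctrl rep1, where the neutrophil sum was also the highest of the controls, and the log2 fold change was 0.34 ± 0.47 (SE, adjusted p = 0.78).

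Slow and gamma motoneurons are the more resistant types. Sv2a, a synaptic vesicle protein of slow motoneurons, had 10.8, 10.7, 10.7 and 25.9 CPM against 30, 24, 23.3, 24.6 and 30.4 CPM, where SOD1 rep4 lay among the controls, and a log2 fold change of -0.87 ± 0.27 (SE, adjusted p = 0.256). Esrrg, a nuclear receptor of gamma motoneurons, had 14.4, 17.4, 22.9 and 36.5 CPM against 23.6, 49.9, 40.2, 31.7 and 42.8 CPM and -0.72 ± 0.30 (SE, adjusted p = 0.307). Gfra1, the GDNF co-receptor of the same cells, had 17.3, 38.5, 18.4 and 28.4 CPM against 33.8, 35.5, 30.6, 80.8 and 64.3 CPM and -0.94 ± 0.35 (SE, adjusted p = 0.277). Sncg, gamma-synuclein, was the other called slow marker, at -0.98. The fast count was 0 without SOD1 rep1 or ctrl rep6 and 1 without ctrl rep5, and the slow count was 1 without SOD1 rep1, SOD1 rep3 or ctrl rep6. The gamma count was 0 without SOD1 rep3, 1 without ctrl rep4, rep5 or rep6 and 4 without ctrl rep1, with limma-voom or with the header exchange. Taken alone, libraries 1 to 4 gave fast, slow and gamma counts of 0, 1 and 0, at medians of -0.32, -0.45 and -0.73. Under the erythroid covariate these were 0, 0 and 1, at medians of -0.24, -0.33 and -0.47.

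Axon growth genes were lower as a group, with 8 of 19 called lower, 0 called higher and a median of -0.84. Gap43, a growth cone protein, had 13.6, 25.1, 11.7 and 14.2 CPM in AAV-miR SOD1 and 19.4, 38.4, 35, 47.4 and 52.1 CPM in AAV-miR ctrl. SOD1 rep2 was above ctrl rep1 and below the other 4 controls, and the log2 fold change was -1.25 ± 0.30 (SE, adjusted p = 0.256, and 0.0205 in DESeq2). Ecel1, a protease induced by nerve injury, had 22, 39.1, 25 and 26.9 CPM against 33, 46.9, 33.1, 170 and 103 CPM and a log2 fold change of -1.46 ± 0.49 (SE, adjusted p = 0.27). The fold of Ecel1 rested on ctrl rep5 and ctrl rep6, and it was -0.40 in the libraries numbered 1 to 4. The count was 3 without SOD1 rep1, ctrl rep5 or ctrl rep6 and 4 without SOD1 rep3. The median without ctrl rep3 was -0.48, with the count still at 8, and the count was 2 both in the libraries numbered 1 to 4 and with the erythroid covariate (medians -0.40 and -0.40). Among neurofilaments and peripherin, 1 of 5 was called lower, at a median of -0.71. Nefl, the light neurofilament, had 1210, 1860, 1290 and 1750 CPM against 1720, 1900, 2250, 4930 and 4460 CPM, with the controls rep1, rep3 and rep4 close to the AAV-miR SOD1 range, and a log2 fold change of -0.998 ± 0.39 (SE, adjusted p = 0.286). Exons of Nefl share positions with Nefm in the annotation. The neurofilament count was 0 without SOD1 rep1, SOD1 rep3, ctrl rep5 or ctrl rep6, 2 without SOD1 rep4 or ctrl rep4, and 3 without SOD1 rep2 or ctrl rep1. With the header exchange all 5 genes were called lower, at a median of -0.95, and DESeq2 called 2. The count was 0 in the libraries numbered 1 to 4 (median -0.25), as it was with the erythroid covariate (median -0.19).

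Activity-dependent genes had 1 of 12 called in each direction (8.33%), near the 8.54% lower and 5.99% higher of all genes. Their median was -0.02. Nr4a1, an early response nuclear receptor, had 13.9, 7.15, 37.5 and 27.2 CPM against 21.6, 94.8, 41.9, 59.3 and 53.7 CPM and a log2 fold change of -1.34 ± 0.49 (SE, adjusted p = 0.277). Ctrl rep3 was the highest of the 9, and without it 0 genes of this list were called lower, as with the header exchange, with the erythroid covariate or in the libraries numbered 1 to 4. Btg2, an antiproliferative early response gene, had 136, 100, 90.5 and 127 CPM against 68.4, 77.2, 45.3, 40.4 and 82.1 CPM, with no overlap and a log2 fold change of 0.86 ± 0.30 (SE, adjusted p = 0.274).

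Receptors for both inhibitory and excitatory transmitters were lower. Of 11 GABA-A receptor subunits 6 were called lower and all 11 had negative values, at a median of -0.82. Gabrg1, described above, was the called subunit with the smallest p. For glycine receptors and gephyrin 2 of 4 were called lower (median -0.65). Glrb, the beta subunit of the glycine receptor, had 102, 129, 107 and 137 CPM against 134, 179, 195, 270 and 213 CPM, and Gphn, the scaffold of inhibitory synapses, had 27.9, 31.3, 32.6 and 34.5 CPM against 31.9, 43.9, 51.1, 53.8 and 51.9 CPM. Their log2 fold changes were -0.74 ± 0.24 and -0.56 ± 0.20 (SE), with adjusted p of 0.26 and 0.277. Among AMPA and NMDA receptor subunits 4 of 10 were called lower and 10 of 10 were negative (median -0.61). Gria1, an AMPA receptor subunit, had 2.67, 3.94, 2.94 and 5.75 CPM against 5.92, 8.43, 7.05, 11.8 and 7.95 CPM, a narrow gap between groups, and a log2 fold change of -1.11 ± 0.30 (SE, adjusted p = 0.256, and 0.0337 in DESeq2).

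The GABA-A count was 2 without SOD1 rep3 and 3 without ctrl rep6, and it was 4 without ctrl rep3. The AMPA and NMDA count was 1 without SOD1 rep3 and 2 without SOD1 rep1 or ctrl rep6. With the erythroid covariate 1 GABA-A, 0 glycine and 0 glutamate receptor genes were called lower, at medians of -0.27, -0.18 and -0.24. The libraries numbered 1 to 4 had 2, 1 and 1 called lower.

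Ion channels were mostly lower, to a smaller degree. Voltage-gated sodium channels had 4 of 9 called lower (median -0.45), calcium channels 2 of 14 (median -0.33) and potassium channels 8 of 34 (median -0.47), and 0 genes of these lists were called higher. Kcnh2, the ERG potassium channel, had 15.4, 14.4, 12.8 and 16.6 CPM against 28.5, 18.5, 24.1, 50 and 43.5 CPM, with all AAV-miR SOD1 values below all controls and a log2 fold change of -1.15 ± 0.29 (SE, adjusted p = 0.256, and 0.0357 in DESeq2). Scn2b, a beta subunit of sodium channels, had 2.36, 1.82, 1.94 and 1.77 CPM against 3.84, 4.24, 2.7, 5.89 and 5.89 CPM and -1.19 ± 0.35 (SE, adjusted p = 0.256). Among the other called sodium channel genes, Scn3b had the lowest log2 fold change at -2.40 (adjusted p = 0.274), with Scn2a at -0.96 and Scn1a at -0.52. The level of Scn3b was low, at 0.668, 0.816, 0.474 and 0.379 CPM against 3.27, 6.02, 2.77, 1.31 and 2.23 CPM. In the non-injected libraries it ran from 0.0569 to 4.47 CPM. Kcnj14, an inward rectifier of motoneurons, had 11.3, 15, 10.8 and 13.1 CPM against 14.2, 16.9, 25.4, 46.7 and 44 CPM. Its highest values were in ctrl rep5 and ctrl rep6, and the log2 fold change was -1.23 ± 0.36 (SE, adjusted p = 0.256). Kcnab1, a potassium channel beta subunit, and Cacnb4, a calcium channel beta subunit, had log2 fold changes of -0.85 and -0.90, each with an adjusted p of 0.256. The potassium count was 4 without SOD1 rep1, SOD1 rep3, ctrl rep5 or ctrl rep6 and 13 without SOD1 rep4, and the calcium channel count was 1 without SOD1 rep1, SOD1 rep3 or ctrl rep6. Calcium buffering genes had 4 of 14 called lower (median -0.26), among them the calcium sensor Ncs1 at -0.93 ± 0.29 (SE, adjusted p = 0.256). The other called buffering genes were Calb2 (calretinin, -1.02), Calm2 (calmodulin, -0.66) and Atp2b2 (a calcium pump, -0.61). The buffering count was 1 without SOD1 rep1, SOD1 rep3, ctrl rep5 or ctrl rep6. Exchanging the headers gave 14 potassium channel genes. The libraries numbered 1 to 4 gave 2 sodium, 0 calcium, 3 potassium channel and 0 buffering genes, and the erythroid covariate gave 1, 0, 2 and 0, at medians of -0.15, -0.18, -0.25 and -0.14.

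Vesicle release and axonal transport genes had the most called members among the neuronal lists. Of 24 vesicle release genes 14 were called lower, 1 was called higher and 3 of the lower had no overlap, at a median of -0.77. Snap25, a SNARE protein of vesicle fusion (ENSMUSG00000027273, chr2:136713453-136782428), had 416, 645, 405 and 745 CPM in AAV-miR SOD1 and 606, 830, 967, 1840 and 1720 CPM in AAV-miR ctrl. SOD1 rep2 and rep4 lay above ctrl rep1 and below the other controls, and the log2 fold change was -1.11 ± 0.37 (SE, adjusted p = 0.27). Nsf, the ATPase that recycles SNAREs, had 152, 206, 131 and 217 CPM against 220, 265, 251, 501 and 422 CPM, and Syn2, a synapsin, had 30.8, 39, 31 and 38.2 CPM against 44.8, 48.4, 42.2, 60.2 and 72.8 CPM. In both genes every AAV-miR SOD1 library was below every control, with log2 fold changes of -0.91 ± 0.30 and -0.63 ± 0.21 (SE) and adjusted p of 0.27 and 0.27. The count was 8 without SOD1 rep1, 5 without SOD1 rep3, 9 without ctrl rep6 and 11 without ctrl rep3. It was 4 in the libraries numbered 1 to 4 and 0 with the erythroid covariate, at a median of -0.35.

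Of 17 axonal transport motors 11 were called lower and all 17 were negative, at a median of -0.66. Dync1i1, a neuronal dynein intermediate chain, had 65.1, 100, 71.2 and 96.1 CPM against 95.5, 131, 123, 233 and 212 CPM and a log2 fold change of -0.93 ± 0.30 (SE, adjusted p = 0.258). Kif3a, a kinesin-2 motor, had 49.4, 74.9, 36.4 and 63.2 CPM against 62.7, 81, 86.3, 149 and 139 CPM and -0.89 ± 0.32 (SE, adjusted p = 0.277). In both, AAV-miR SOD1 rep2 was the highest of its group and lay above ctrl rep1. The count was 5 without SOD1 rep1, 2 without SOD1 rep3, 7 without ctrl rep3, 6 without ctrl rep5 and 4 without ctrl rep6, and 0 in the libraries numbered 1 to 4 or with the erythroid covariate.

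Receptors and contacts that support the motoneuron followed the same direction. Of 12 neurotrophic factor receptors 4 were called lower (median -0.50), including Ret, the GDNF receptor kinase, with 76.8, 119, 64.7 and 102 CPM against 106, 120, 123, 201 and 194 CPM and a log2 fold change of -0.72 ± 0.28 (SE, adjusted p = 0.291). Ntrk2 and Ntrk3, the receptors of BDNF and NT-3, were called lower as well, at -0.52 and -0.47, and the fourth was Gfra1. Of 7 genes of the C-bouton, the large cholinergic synapse on motoneurons, 3 were called lower and 7 were negative (median -0.57). Chrm2, its muscarinic receptor, had 31.9, 45.2, 37.2 and 44.2 CPM against 46, 64.1, 61.6, 89.1 and 76.6 CPM, without overlap, and a log2 fold change of -0.77 ± 0.24 (SE, adjusted p = 0.256). Nrg1, the growth factor neuregulin-1 held at C-boutons, was also called lower, at -0.68. Perineuronal net genes had 3 of 10 called lower (median -0.65), the matrix proteins Bcan (-0.64), Hapln4 (-0.82) and Tnr (-0.87). Hox genes, which set position along the cord, had 4 of 14 called lower (median -0.38), Hoxa7 (-0.57), Hoxa10 (-0.54), Hoxc8 (-0.52) and Hoxc10 (-0.68). Leaving out SOD1 rep1 gave 1 neurotrophic, 1 C-bouton, 1 perineuronal and 0 Hox genes, leaving out SOD1 rep3 gave 1 neurotrophic and 0 perineuronal, and leaving out ctrl rep5 gave 1, 0 and 0 for neurotrophic, perineuronal and Hox genes. Neurotrophic receptors were 2 without SOD1 rep4, ctrl rep3 or ctrl rep6, and Hox genes 2 without SOD1 rep2 or ctrl rep3 and 1 without ctrl rep6. In the order neurotrophic, C-bouton, perineuronal and Hox, the counts were 1, 0, 0 and 0 in the libraries numbered 1 to 4 and 0, 1, 0 and 0 with the erythroid covariate, where the medians were -0.31, -0.21, -0.18 and -0.08.

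Heat shock chaperones and their partners, which fold and hold proteins such as misfolded SOD1, were lower. The list is mostly cytosolic but holds the mitochondrial chaperones Hspd1 and Hspe1, of which Hspd1 was called, at -0.39, and Hspe1 was not, at -0.25. Of 18 tested 8 were called lower, 0 higher and 4 had no overlap, at a median of -0.54. Bag3, a co-chaperone of selective autophagy, had 69, 101, 109 and 108 CPM in AAV-miR SOD1 and 107, 190, 172, 198 and 220 CPM in AAV-miR ctrl. Ctrl rep1 lay among the AAV-miR SOD1 libraries, and the log2 fold change was -0.87 ± 0.23 (SE, adjusted p = 0.256, and 0.0449 in DESeq2). Hsph1, which recharges Hsp70 (ENSMUSG00000029657, chr5:149614287-149636376), had 101, 117, 108 and 133 CPM against 152, 185, 164, 188 and 205 CPM, with no overlap and a log2 fold change of -0.64 ± 0.18 (SE, adjusted p = 0.256). Dnaja1, an Hsp40, had 79, 101, 87.9 and 106 CPM against 112, 134, 138, 177 and 178 CPM and -0.66 ± 0.21 (SE, adjusted p = 0.256). Hspa8, the constitutive Hsp70, had 214, 252, 246 and 317 CPM against 297, 417, 378, 465 and 480 CPM and -0.66 ± 0.20 (SE, adjusted p = 0.256). Exons of Dnaja1 and Hspa8 hold or share positions with small RNA or neighbouring genes. The count was 4 without SOD1 rep1 and 5 without ctrl rep3, ctrl rep5 or ctrl rep6. It was 3 in the libraries numbered 1 to 4 and 0 with the erythroid covariate, at a median of -0.07.

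Heat shock factor acts at arrays of the letters NGAAN in alternating strands. Runs of such units, read as TTC, GAA and TTC or as GAA, TTC and GAA with NN between them, were searched on both strands (the arrangements can overlap) and found in RefSeq promoter windows (GRCm38.p6, 300 bases, 250 before the start and 50 after) of 4 of 13 chaperone genes with a window, Dnajb6, Hspd1, Hspe1 and Hsph1, against 0.66% of all 27025 genes. Hsph1, the called gene without overlap among them, is shown by the 30 bases around its match (chr5:149636279-149636308, minus strand, match in capitals), which begins 15 bases past the start.
Hsph1: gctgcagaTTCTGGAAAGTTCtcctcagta

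Of these 4 genes, 2 were called lower, Hsph1 and Hspd1. The match is a description of the letters in the window. Genes were counted singly, without merging windows that overlap, so the 4 genes need not hold separate matches.

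Other stress systems had a smaller share of called genes. It was 11.1% lower for the unfolded protein response (8.54% of all genes) and 14.3% higher for antioxidant enzymes (5.99% of all genes). The unfolded protein response had 2 of 18 called lower and 1 higher (median -0.11). Chac1, induced through ATF4, had 28.9, 37, 24.4 and 54.7 CPM against 42.2, 66.8, 50.8, 87.7 and 118 CPM and -1.02 ± 0.35 (SE, adjusted p = 0.276), while Ppp1r15a, the phosphatase subunit GADD34, had 163, 128, 66.5 and 139 CPM against 76.5, 41.2, 44.7, 36.6 and 93.1 CPM and 1.09 ± 0.36 (SE, adjusted p = 0.27). The other gene called lower was Ddit3, the transcription factor CHOP, at -0.81, so that genes of 1 stress branch lay on opposite sides. Antioxidant enzymes had 3 of 21 called higher and 0 lower (median -0.001). Gpx1, a glutathione peroxidase, had 7450, 5400, 3410 and 4610 CPM against 3930, 2840, 2260, 1220 and 1950 CPM and 1.10 ± 0.38 (SE, adjusted p = 0.274), and Prdx2, a peroxiredoxin abundant in red cells, had 1030, 953, 612 and 826 CPM against 552, 632, 520, 572 and 672 CPM and 0.54 ± 0.20 (SE, adjusted p = 0.277). The other was Gsr, glutathione reductase, at 1.01. The log2 fold change of Gpx1 was 0.01 with the erythroid covariate. The unfolded protein count was 4 without ctrl rep1 and 1 without SOD1 rep1, rep2 or rep3 or ctrl rep5 or rep6, and the antioxidant count was 1 without SOD1 rep1, 6 without SOD1 rep3 and 5 without SOD1 rep4. Both counts were 1 in the libraries numbered 1 to 4 and 0 with the erythroid covariate. The number of unfolded protein genes called higher was 1 or 2 with a library left out, 2 in the libraries numbered 1 to 4 and in DESeq2, and 0 with the covariate.

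Genes mutated in inherited ALS differed by list. For RNA-binding protein genes the share called lower (8.33%) was near that of all genes (8.54%). For autophagy and proteostasis genes the share called lower was above that of all genes. The RNA-binding protein list had 1 of 12 called lower (median 0.05), the elongator subunit Elp3 at -0.35, and the call was lost without SOD1 rep1, SOD1 rep2, SOD1 rep3, ctrl rep1, ctrl rep3 or ctrl rep5, in the libraries numbered 1 to 4, in limma-voom and with the erythroid covariate. Of 12 autophagy and proteostasis genes 3 were called lower and 1 higher (median -0.14). Sqstm1, the autophagy receptor p62, had 460, 566, 661 and 672 CPM against 603, 848, 907, 1380 and 1410 CPM, with the highest values in ctrl rep5 and ctrl rep6, and a log2 fold change of -0.80 ± 0.28 (SE, adjusted p = 0.276). C9orf72, whose repeat expansion is the commonest genetic cause of ALS, had 22.4, 33.9, 27 and 25.5 CPM against 34.2, 51.8, 48.5, 52 and 33.8 CPM and -0.70 ± 0.21 (SE, adjusted p = 0.256). SOD1 rep2 lay just above the lowest control for this gene. The others were Vapb, a membrane contact protein, at -0.79, and Ccnf, a cyclin of dividing cells, called higher at 0.93. Ccnf was not called without SOD1 rep1, SOD1 rep2, ctrl rep4, ctrl rep5 or ctrl rep6, and the number called lower ranged from 2 to 3 over the libraries left out and was 0 with the erythroid covariate.

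Cholesterol synthesis genes were lower in AAV-miR SOD1. Of 21 tested 11 were called lower, 0 higher and 5 had no overlap between groups, at a median of -0.56. Sqle, squalene epoxidase (ENSMUSG00000022351, chr15:59315077-59331192), had 39, 62.2, 42.5 and 45.1 CPM in AAV-miR SOD1 and 64.6, 84.2, 79.3, 110 and 104 CPM in AAV-miR ctrl. Every AAV-miR SOD1 library was below every control, and the log2 fold change was -0.91 ± 0.21 (SE, adjusted p = 0.256, and 0.017 in DESeq2). Msmo1, a sterol oxidase, had 58.1, 83.1, 57 and 52.8 CPM against 84.8, 106, 113, 158 and 145 CPM and -0.95 ± 0.24 (SE, adjusted p = 0.256, and 0.0357 in DESeq2). Cyp51, lanosterol demethylase, had 45.2, 54.5, 51 and 54.7 CPM against 62.8, 76.6, 64.9, 93.8 and 97.3 CPM and -0.62 ± 0.17 (SE, adjusted p = 0.256, and 0.0427 in DESeq2), and its exons share positions with Akap9. For all 3 genes ctrl rep5 and ctrl rep6 were the highest. Hmgcs1, the synthase at the start of the pathway, had 66.4, 110, 99.6 and 79.9 CPM against 123, 139, 151, 124 and 113 CPM. Its controls rep5 and rep6 were not the highest, its groups did not overlap by a narrow gap, and the log2 fold change was -0.55 ± 0.18 (SE, adjusted p = 0.266).

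The count was 6 without SOD1 rep1 or ctrl rep5, 7 without SOD1 rep4 or ctrl rep6 and 8 without ctrl rep3. It was 3 in the libraries numbered 1 to 4, at a median of -0.32, and with the erythroid covariate it was 2, at a median of -0.17. There Sqle stood at -0.67, Msmo1 at -0.60, Cyp51 at -0.44 and Hmgcs1 at -0.39.

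Sterol-sensing transcription factors are known to bind the letters TCACNCCAC. Searched on both strands, they were in the window of 1 of 15 genes of this list, Hmgcs1, against 1.44% of all genes. The 250 bases before its start are shown because the gene was called and held the match, in capitals (chr13:119690101-119690350, plus strand, GRCm38.p6).
Hmgcs1: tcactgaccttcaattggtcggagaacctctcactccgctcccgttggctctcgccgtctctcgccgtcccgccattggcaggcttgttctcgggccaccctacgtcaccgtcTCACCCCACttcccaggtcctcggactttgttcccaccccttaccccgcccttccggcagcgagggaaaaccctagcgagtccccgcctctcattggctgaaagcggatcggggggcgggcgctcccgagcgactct

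Genes of energy supply and of protein turnover differed by list. Glycolysis (26.7%) and proteasome genes (16.1%) were called lower more often than all genes (8.54%). Nuclear-encoded respiratory chain subunits had 0 of 70 called (median -0.15), also with DESeq2 and limma-voom, and 2 were called lower without ctrl rep1. Of 13 mitochondrially encoded genes 8 passed the filter, with 0 called by any of the 3 tools (median -0.10). The other 5, mt-Nd4l, mt-Co2, mt-Co3, mt-Atp6 and mt-Atp8, were listed at 0 in every library. Glycolysis genes had 4 of 15 called lower (median -0.33), among them Pfkp, a phosphofructokinase, at -0.998 ± 0.30 (SE, adjusted p = 0.256), and Eno2, the neuronal enolase, at -1.11 ± 0.40 (SE, adjusted p = 0.277). Pkm and Ldhb, of pyruvate and lactate metabolism, were called lower at -0.66 and -0.88. The glycolysis count was 2 without SOD1 rep1, SOD1 rep2, ctrl rep5 or ctrl rep6. Cytosolic ribosomal proteins had 2 of 87 called higher (2.3%), a smaller share than the 5.99% of all genes. Of the 87, 72 were positive, at a median of 0.33. Rps7, a small subunit protein, had 39.7, 39.3, 42.6 and 35.8 CPM against 38.5, 29.7, 27.2, 19.1 and 17.8 CPM and 0.57 ± 0.26 (SE, adjusted p = 0.329), with its lowest values in ctrl rep5 and ctrl rep6. The other was Rpl39l, a testis-enriched paralog of Rpl39, at 2.07. Its level was low and overlapped, at 4.85, 0.192, 1.47 and 2.59 CPM against 0.309, 1.01, 0.75, 0.421 and 0.237 CPM. The ribosomal count was 17 without ctrl rep1, 4 without ctrl rep3, 0 without SOD1 rep1 and 1 without each of SOD1 rep2, SOD1 rep4, ctrl rep4, ctrl rep5 and ctrl rep6. Proteasome subunits had 5 of 31 called lower and 31 negative (median -0.26), from Psmc5 at -0.56 to Psmd1 at -0.35. Their count was 14 without ctrl rep1, 0 without SOD1 rep1, SOD1 rep2, ctrl rep3, ctrl rep5 or ctrl rep6, 1 without SOD1 rep3 and 2 without ctrl rep4. The header exchange gave 6 ribosomal and 10 proteasome genes, and limma-voom gave 19 and 9, with 6 ribosomal genes in DESeq2. All 3 counts (glycolysis, ribosomal and proteasome) were 0 in the libraries numbered 1 to 4 and with the erythroid covariate, where the medians were -0.01, 0.12 and 0.01.

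**Figure D5:**
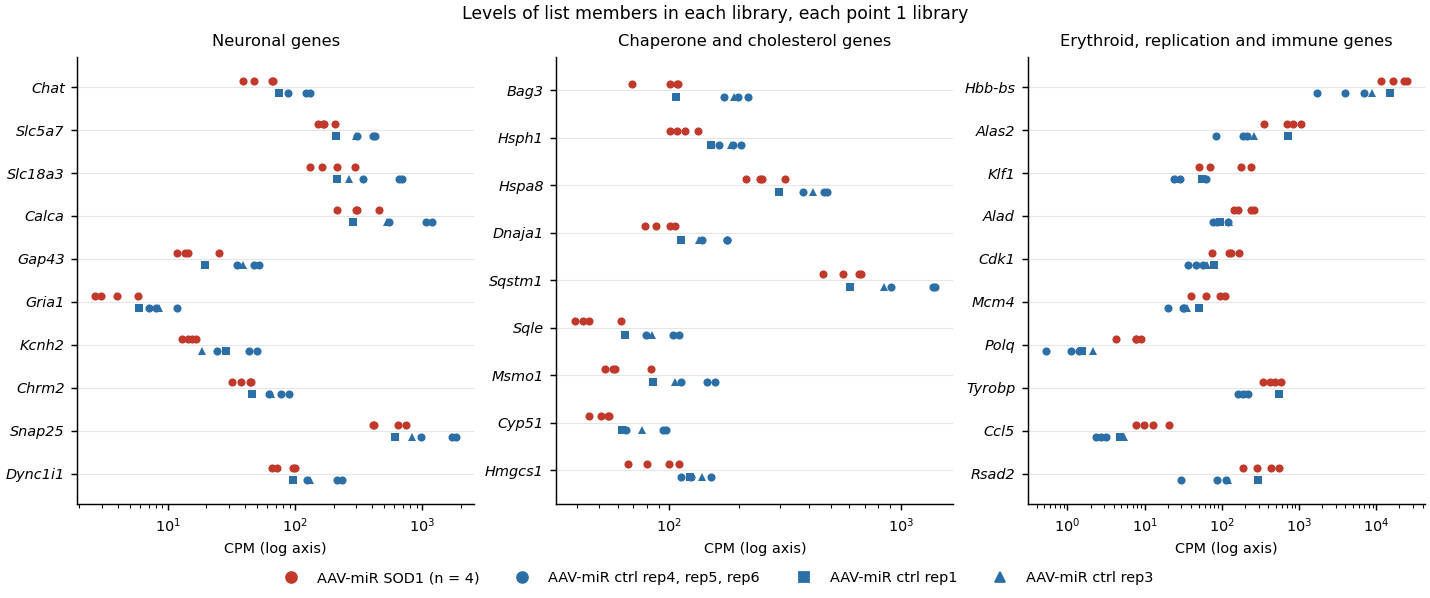
Points give the level of single list members in each library, in CPM on a log axis, for neuronal genes (left), chaperone and cholesterol genes (middle) and erythroid, replication and immune genes (right). AAV-miR SOD1 libraries (red) lie at the low side on the left and middle and at the high side on the right, with ctrl rep1 (square) often the control nearest to or among them, as for Tyrobp at 543 CPM.

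All 17 measured erythroid and heme synthesis genes were called higher (100% against 5.99% of all genes), and 5 had no overlap, at a median log2 fold change of 1.46. Hbb-bs, an adult beta globin, had 24700, 23000, 11400 and 16300 CPM in AAV-miR SOD1 and 15100, 8870, 6850, 1720 and 3980 CPM in AAV-miR ctrl. Ctrl rep1 lay above SOD1 rep3 and just below SOD1 rep4, and the log2 fold change was 1.37 ± 0.58 (SE, adjusted p = 0.313), which is uncertain because globin genes have near-identical copies. Alas2, the first enzyme of heme synthesis in red cells (ENSMUSG00000025270, chrX:150547375-150570638), had 1070, 836, 349 and 693 CPM against 718, 263, 214, 83.8 and 191 CPM and 1.33 ± 0.55 (SE, adjusted p = 0.307), and its exons share positions with Apex2. Klf1, the transcription factor of red cell genes (ENSMUSG00000054191, chr8:84901928-84905291), had 238, 175, 70.2 and 51.2 CPM against 54.7, 25.7, 28.8, 24 and 62.6 CPM and 1.77 ± 0.48 (SE, adjusted p = 0.256, and 0.036 in DESeq2). SOD1 rep4 was under ctrl rep1 and ctrl rep6 for Klf1. Alad, which joins heme precursors, had 263, 239, 142 and 160 CPM against 94.2, 124, 87.4, 77.1 and 122 CPM, without overlap, and 0.99 ± 0.25 (SE, adjusted p = 0.256, and 0.0332 in DESeq2). Epb42, a red cell membrane protein, had 123, 90.1, 30.1 and 84.5 CPM against 30.8, 30.1, 23.8, 11.9 and 28.7 CPM, with the lowest AAV-miR SOD1 value, rep3, within the range of the controls.

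The erythroid count was 9 without SOD1 rep1, the library with the highest erythroid sum, and 17 without ctrl rep1 or ctrl rep3. In the libraries numbered 1 to 4 it was 12, at a median of 1.18, without ctrl rep5 and ctrl rep6. The covariate was made from these genes, and the 0 called under it follows from that.

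GATA factors and their partner Tal1 bind short motifs in red cell promoters. The letters AGATAA or TGATAA, on either strand, were in the window of 8 of 12 genes of this list with a RefSeq window, against 20.96% of all genes. The 8 include both alpha globin genes, Hba-a1 and Hba-a2. Alas2 and Klf1, for the first step of heme synthesis and for a factor of red cell transcription, are shown by the 208 and 196 bases before their earliest annotated starts (Alas2 chrX:150547167-150547374, Klf1 chr8:84901732-84901927, both plus strand, GRCm38.p6), with the match in capitals.
Alas2: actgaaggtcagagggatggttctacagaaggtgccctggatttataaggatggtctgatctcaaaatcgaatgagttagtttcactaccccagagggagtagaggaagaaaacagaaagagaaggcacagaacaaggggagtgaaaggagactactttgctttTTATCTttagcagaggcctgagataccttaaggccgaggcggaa
Klf1: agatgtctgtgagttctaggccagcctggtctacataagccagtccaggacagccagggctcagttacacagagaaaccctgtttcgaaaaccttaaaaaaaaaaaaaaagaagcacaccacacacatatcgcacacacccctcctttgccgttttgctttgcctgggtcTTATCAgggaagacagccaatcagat

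Replication and mitosis genes, which serve dividing cells, were higher in AAV-miR SOD1. Of 28 tested 27 were called higher (96.4%) and all 28 were positive, at a median of 1.04, yet 0 had no overlap between groups. Cdk1, the kinase of mitosis, had 169, 125, 73.7 and 130 CPM against 78.3, 63.8, 46.2, 37 and 56.9 CPM and a log2 fold change of 1.14 ± 0.28 (SE, adjusted p = 0.256, and 0.0307 in DESeq2). Mcm4, of the replication helicase, had 109, 95.2, 40.5 and 62.4 CPM against 50.2, 35.9, 20.1, 32.6 and 31.1 CPM and 1.17 ± 0.31 (SE, adjusted p = 0.256, and 0.0383 in DESeq2). Mki67, a marker of dividing cells, had 185, 223, 73.4 and 99.4 CPM against 90.4, 64.2, 46.6, 58.4 and 74.1 CPM and 1.12 ± 0.32 (SE, adjusted p = 0.256). In each of the 3 genes only SOD1 rep3 was below the highest control, ctrl rep1. The summed level of the list ranged from 1503 to 3805 CPM in AAV-miR SOD1 and from 861.1 to 2084 CPM in AAV-miR ctrl, with SOD1 rep1 the highest. The count was 16 without SOD1 rep1, 25 without ctrl rep3, 11 in the libraries numbered 1 to 4 and 0 with the erythroid covariate, where the median was -0.03.

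DNA repair genes had 5 of 20 called higher and 19 of 20 positive (median 0.76). Polq, the polymerase of end joining by microhomology (ENSMUSG00000034206, chr16:37011786-37095417), had 7.83, 9.07, 7.77 and 4.24 CPM in AAV-miR SOD1 and 1.55, 2.12, 1.12, 0.526 and 1.42 CPM in AAV-miR ctrl. The lowest AAV-miR SOD1 library, rep4, was above the highest control, and the log2 fold change was 2.42 ± 0.45 (SE, adjusted p = 0.256, and 0.000947 in DESeq2). With the erythroid covariate it was 1.49 and in the libraries numbered 1 to 4 it was 2.18. Its level was low, and 3 counts in a library correspond to between 0.0789 and 0.225 CPM. Rad51ap1, of homologous recombination, had 26.7, 28.2, 15.4 and 20.7 CPM against 20.3, 7.9, 9.9, 8.18 and 9.14 CPM and 1.04 ± 0.31 (SE, adjusted p = 0.256). Brca2, Blm and Lig1, of recombination and DNA joining, were called higher at 1.18, 0.98 and 0.95. The repair count was 2 without SOD1 rep1 or rep2, 3 without ctrl rep5 and 11 without ctrl rep1. It was 10 in limma-voom, 2 in the libraries numbered 1 to 4 and 1 with the erythroid covariate, where the list median turned to -0.10.

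Immune lists were higher at the median as reported. With the erythroid covariate the list medians turned sign for microglia (-0.25), neutrophil (-0.20), interferon (-0.48), MHC class I (-0.21) and cytokine genes (-0.10), each with 0 called higher, and that of myeloid receptors was 0.04 with 1 called. The summed levels of ctrl rep1 lay within or above the AAV-miR SOD1 range, above all 4 libraries for microglia (2044 CPM against at most 1821) and MHC class I genes (4769 CPM against at most 4407). Counts in the libraries numbered 1 to 4 were 1 for microglia, myeloid, interferon and cytokine genes and 0 for neutrophil and MHC class I genes. In limma-voom they were 7 microglia, 11 myeloid, 12 neutrophil, 6 interferon and 7 MHC class I genes. CD300 and other myeloid receptors had 5 of 14 called higher and 14 positive (median 0.83), and microglia and complement genes 4 of 16 (median 0.35). Clec7a, the dectin-1 receptor, had 52.6, 43.6, 31.4 and 31.8 CPM against 36.7, 15.9, 20.5, 12.9 and 13.9 CPM and 1.00 ± 0.33 (SE, adjusted p = 0.27). Tyrobp, the adaptor of microglial receptors, had 576, 486, 340 and 417 CPM against 543, 206, 217, 160 and 190 CPM and 0.79 ± 0.35 (SE, adjusted p = 0.321). For Tyrobp ctrl rep1 was the second highest of the 9 libraries, and with the erythroid covariate the fold was -0.12. Trem2, a receptor that signals through Tyrobp, had 5.56, 12.7, 8.29 and 7.4 CPM against 5.7, 4.58, 3, 4.76 and 6.5 CPM and 0.79 ± 0.30 (SE, adjusted p = 0.28), and 0.65 with the covariate. Fcer1g and Ctss, an Fc receptor chain and a lysosomal protease, were the other called microglia genes, at 0.83 and 0.68. The other myeloid receptors called were Cd300a (0.91), Cd300c2 (0.97) and Fcgr4 (1.11). The myeloid count was 2 without SOD1 rep1, 3 without ctrl rep5 or ctrl rep6, 8 without ctrl rep1 and 9 without SOD1 rep3. The microglia count was 7 without ctrl rep1, 2 without SOD1 rep4 or ctrl rep3 and 1 without SOD1 rep1, SOD1 rep2, ctrl rep4, ctrl rep5 or ctrl rep6.

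Neutrophil granule genes had 3 of 13 called higher and 13 positive (median 0.84). Mmp8, a neutrophil collagenase, had 383, 261, 129 and 174 CPM against 199, 118, 70.7, 90.9 and 101 CPM and 1.03 ± 0.38 (SE, adjusted p = 0.277). S100a8, an abundant calcium-binding protein of neutrophils, had 24400, 12500, 9470 and 13500 CPM against 20500, 6060, 6610, 2300 and 3300 CPM and 0.95 ± 0.58 (SE, adjusted p = 0.459). Ctrl rep1 was the second highest library for S100a8 as well. The called genes besides Mmp8 were Ltf, lactoferrin, at 1.05 and Lcn2, lipocalin 2, at 1.09. The count was 12 without ctrl rep1, 6 without SOD1 rep3, 5 in DESeq2 and 0 without SOD1 rep1. B-cell precursor genes had 0 of 13 called (median 0.40), with 0 in DESeq2, 2 in limma-voom and 1 without ctrl rep1.

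Interferon-stimulated genes had 3 of 21 called higher (median 0.46). Rsad2, the antiviral enzyme viperin, had 549, 436, 187 and 288 CPM against 294, 122, 87.6, 29.2 and 112 CPM and 1.5 ± 0.53 (SE, adjusted p = 0.277). Isg15, a ubiquitin-like modifier, had 125, 62.9, 45.1 and 55.2 CPM against 62.7, 44, 26.5, 8.54 and 26.2 CPM and 1.10 ± 0.51 (SE, adjusted p = 0.337). With the erythroid covariate both had negative values, -0.18 and -0.51, and 4 members of the list were called lower. MHC class I genes had 1 of 13 called higher (median 0.45), and cytokine and NF-kB genes 3 of 14 (median 0.59). Ccl5, a T cell chemokine, had 9.97, 20.8, 7.72 and 12.8 CPM against 4.82, 5.4, 2.32, 3.15 and 2.74 CPM, with no overlap and a log2 fold change of 1.79 ± 0.56 (SE, adjusted p = 0.256). The other called genes were Irf9, an interferon signal factor, at 0.70, H2-T23, a class I antigen-presenting molecule, at 0.67, Il1b, interleukin 1 beta, at 1.09, and Nfkb1 at 0.58. The interferon count was 7 without ctrl rep1 and 1 without SOD1 rep1, SOD1 rep2, ctrl rep4, ctrl rep5 or ctrl rep6. The MHC count was 7 without ctrl rep1, 3 without SOD1 rep3 and 0 without SOD1 rep1, SOD1 rep2 or any other control (3 in DESeq2, and 4 with the header exchange, which gave 5 interferon genes), and the cytokine count was 1 without SOD1 rep1 or ctrl rep4.

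Glial lists are of interest because the vector acts in astrocytes. Astrocyte genes had 1 of 14 called lower (median -0.37), with 2 without SOD1 rep2, in limma-voom or with the header exchange, 3 without ctrl rep5 and 4 in the libraries numbered 1 to 4 (median -0.45). Their sum was 1093 to 1505 CPM in AAV-miR SOD1 and 1585 to 2236 CPM in AAV-miR ctrl, without overlap. Of the 14 members only 1, Aldoc, had no overlap, and as it is part of the sum the gaps are not separate observations. The called gene was Aldoc, the astrocyte aldolase, which had 143, 193, 111 and 208 CPM against 229, 293, 360, 437 and 353 CPM and a log2 fold change of -1.03 ± 0.26 (SE, adjusted p = 0.256, and 0.0261 in DESeq2). It was -0.74 with the erythroid covariate and -1.01 without ctrl rep3. Gfap, the filament of reactive astrocytes, had 111, 88.2, 54.4 and 33.3 CPM against 178, 199, 271, 20.4 and 28.9 CPM, with the lowest values in ctrl rep5 and ctrl rep6, and -0.96 ± 0.63 (SE, adjusted p = 0.496). In the libraries numbered 1 to 4 alone its fold was -1.57, and all 4 AAV-miR SOD1 values lay below all 3 controls.

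Oligodendrocyte and myelin genes had 0 of 15 called (median -0.42), with 0 in DESeq2 and 1 in limma-voom. Their sum was 2359, 2926, 1493 and 1259 CPM in AAV-miR SOD1 and 4606, 3384, 4757, 1221 and 1475 CPM in AAV-miR ctrl. Here too ctrl rep5 and ctrl rep6 were at the level of the AAV-miR SOD1 libraries, and the count was 5 without ctrl rep5, 3 without ctrl rep6 and 1 without SOD1 rep2. In the libraries numbered 1 to 4 it was 6, at a median of -0.76, and with the erythroid covariate it was 8, at a median of -1.34. Endothelial (12 genes), pericyte (9), Schwann cell (8), bone (14) and skeletal muscle (10) genes had 0 called in edgeR and DESeq2, and limma-voom called 1 endothelial and 1 Schwann cell gene lower. The endothelial count was 1 lower without SOD1 rep2 or ctrl rep1, and the pericyte count 1 lower in the libraries numbered 1 to 4. Oligodendrocyte precursor genes had 0 of 6 called (1 higher in DESeq2, 1 called without SOD1 rep1, SOD1 rep3 or SOD1 rep4, and 2 lower with the erythroid covariate), and spinal interneuron genes 0 of 10, with 2 lower without SOD1 rep4. Mastermind and Notch pathway genes had 2 of 18 called lower, the ligand Dll1 (-1.45) and the target Hey1 (-0.74), and 1 higher, the receptor Notch1 (0.71), at a median of 0.23. The number lower was 0 without SOD1 rep1 or ctrl rep6, in the libraries numbered 1 to 4 or with the erythroid covariate, and 1 without SOD1 rep2, rep3 or rep4 or ctrl rep5. The number higher was 5 without SOD1 rep3, 3 with the header exchange, 4 without ctrl rep1, 2 without SOD1 rep4 and 0 with the covariate or without SOD1 rep1, SOD1 rep2, ctrl rep4 or ctrl rep5. Acta1, skeletal muscle actin, had 12000, 3790, 51700 and 36900 CPM against 10600, 58100, 42500, 20200 and 28900 CPM and -0.30 ± 0.69 (SE, adjusted p = 0.882), with SOD1 rep1, SOD1 rep2 and ctrl rep1 the lowest. The levels of both groups covered much the same range, and its log2 fold change was 0.05 with the header exchange and 0.09 without ctrl rep3.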

How the data were processed

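The deposited files hold raw read counts per Ensembl gene, 1 table per library, with closing lines for unassigned reads that were left out of library sizes and tests. Cutadapt 1.8, STAR 2.5.2b, HTSeq 0.6.1 and GRCm38 are named per the submitters' processing notes, and roles, settings and strand are not given in the sources used here. Counts listed as not uniquely aligned made up 44.56% to 56.75% of all counts, assigned and unassigned, in the 9 libraries.

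Genes were kept with edgeR's filterByExpr (minimum count 10, minimum total 15), and libraries were scaled by TMM. The quasi-likelihood test of edgeR 4.0.16 (R 4.3.3) was fitted on all 13 libraries with 3 groups. For each gene the spread was estimated over the 3 groups together, with 10 residual degrees of freedom. The common biological coefficient of variation, a summary over genes, was 0.47. Benjamini-Hochberg adjustment was made over 17403 genes, with a threshold of 0.05. CPM values are TMM-scaled and not per length. The spread of counts between mice, at 13897189 to 37334069 counts per library, limits the precision. DESeq2 1.42.0, limma 3.58.1 (voom with quality weights), other scalings and filters, a replicate block, the 9 libraries alone, those numbered 1 to 4, the header exchange and each library left out were alternatives. The erythroid covariate, the mean log2 CPM of the erythroid list in the same edgeR fit, was chosen after the data were seen. No 2 of the 13 libraries held identical values. The edgeR step was tested on simulated data.

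Named genes were Sod1, the 12 per direction with the smallest p among genes with no overlap and a mean of at least 2 log2 CPM, and up to 4 per list by smallest p. Hmgcs1, Hbb-bs, Alas2, S100a8, Mmp9, Acta1 and other called list members were named outside that rule. Members and lists were chosen with earlier results of these data known. Symbols were found for 48349 of 48709 rows. Positions are from GENCODE M21 (GRCm38) and promoters from RefSeq (GRCm38.p6), read with Python 3.11.15 and pandas 2.3.3. Of 101 genes examined in detail, 21 share exon positions with another annotated gene (among them Nefl, Gphn, Chrm2, Ppp1r15a, Prdx2, Sqstm1, Hmgcs1, Pfkp and C9orf72), so their counts are uncertain. A few genes, 1 of the 12 higher among them, and some coordinates are not reported here.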

Additional observations from a re-analysis of the deposited data

Results flagged for a closer look

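Of 162 groups of values examined, 16 held a library that stood apart from the rest of its group by Dixon's test at the 95% level, where chance gives about 1 in 20. Ctrl rep1 was that library in 12 of them. It had 23103 genes detected, against 21672 to 21946 in the other controls. Its Luzp2 level was 3.76 on the log2 CPM scale against 4.42 to 4.64, and its Fut9 level was 3.53 against 4.09 to 4.25.

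Among summed gene lists, ctrl rep1 was low for sodium channel, calcium channel and heat shock chaperone genes, while the other neuronal lists were not set apart. Its skeletal muscle sum (21340 CPM) was also the lowest of the controls, though not set apart by this test. Sodium channels summed to 434.9 CPM against 662.9 to 738.2 CPM in the other controls, calcium channels to 173.1 CPM against 271.4 to 301.9 CPM, and heat shock chaperones to 3630 CPM against 5627 to 5908 CPM. It was high for immune genes, with neutrophil granule genes at 70960 CPM against 11510 to 20920 CPM and microglia and complement genes at 2044 CPM against 817.2 to 977.6 CPM. MHC class I genes stood at 4769 CPM against 2738 to 2885 CPM, CD300 and myeloid receptors at 362.6 CPM against 140.9 to 174.1 CPM, and cytokine genes at 246.6 CPM against 177 to 193.9 CPM. ALS-linked RNA-binding protein genes summed to 1135 CPM against 855.3 to 915.9 CPM.

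In AAV-miR SOD1, rep4 had 22317 genes detected against 23146 to 23275 in the other 3 libraries. Its spinal interneuron genes summed to 68.78 CPM against 29.47 to 32.94 CPM, and its B-cell precursor genes to 855.1 CPM against 413.5 to 466.8 CPM. SOD1 rep1 had MHC class I genes at 4407 CPM against 3658 to 3768 CPM.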

How the results depend on the processing

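The number of genes at an adjusted p under 0.05 was 0 in edgeR under each alternative fit and in limma-voom, and 180 in DESeq2. The number at an unadjusted p under 0.05, 2529 as reported, was 3814 with limma-voom, 891 in the libraries numbered 1 to 4, 256 with the erythroid covariate (chosen after the data were seen), and 1192 to 3986 with 1 library left out. With no filter on low counts it was 3342 of 31373 genes, of which 55.0% were higher, against 41.2% as reported. The share higher was 52.7% with limma-voom. With the replicate block the number at an unadjusted p under 0.05 was 1535, of which 61.3% were higher. Same-numbered libraries had correlations of deviations of 0.243, 0.24 and 0.002, and differently numbered ones ran from -0.31 to 0.275. Whether the numbers pair the mice cannot be told from these values, and the fit as reported held no block. With the block 9 of 15 myelin and 3 of 14 astrocyte genes were called lower. The cause of these shifts was not tested.

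With the erythroid covariate these log2 fold changes turned sign: Tyrobp -0.125, Epb42 -0.05, Hbb-bs -0.132, Alas2 -0.432, Mmp8 -0.175, S100a8 -0.103, Mmp9 -0.469, Cd79b -0.049, Rsad2 -0.185, Isg15 -0.507, Cd300a -0.015, Acta1 0.386 and Myh4 0.192. The log2 fold change of Acta1 was 0.05 with the header exchange and ran from -0.815 to 0.086 with 1 library left out. Col1a1 was 0.194 with limma-voom. The difference in genes detected, 905.3 at a minimum of 1 count, turned to -175.5 at a minimum of 10 counts. The difference in mito percent (share of mitochondrial counts) ran from -0.2939 to 0.08675 percentage points with 1 library left out. With 4 and 5 mice and the depths given, small differences in genes of a few CPM were not detectable.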
